A study of Mus musculus with 17 samples.

Results

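Sox17, Sox7 and Sox18 are the 3 mouse genes of the SoxF family, and they were chosen by name, as 3 of the 24015 genes counted in every library. SoxF proteins bind DNA through a high mobility group box. In the early embryo Sox17 and Sox7 are known as transcription factors of the primitive endoderm, the layer that gives rise to the visceral and parietal endoderm of the yolk sac, and Sox17 also acts in definitive endoderm. In blood vessels all 3 genes are expressed in endothelial cells, where Sox18 is best known for its part in lymphatic development, and their roles partly overlap.

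The libraries were made from messenger RNA of CD-1 mouse cells. Induced extraembryonic endoderm (iXEN) cells arise when OSKM (the pluripotency factors Oct4, Sox2, Klf4 and c-Myc) are used for reprogramming. They were sequenced in XEN medium (4 libraries) and in ESC medium (4 libraries), numbered 1, 2, 6 and 9 in each. XEN cells, stem cells of the extraembryonic endoderm, were sequenced in XEN medium (3 libraries) and in ESC medium (3 libraries), numbered 1, 2 and 7 in each. Before sequencing, both kinds of cell had grown in ESC medium for 10 passages and in the named medium for 5 more. Mouse embryonic fibroblasts (MEF) gave 3 control libraries after 3 passages in MEF medium, so that cell type, medium and passages cannot be told apart in any comparison with MEF. The labels call the libraries biological replicates and do not say that they came from separate derivations, and a p-value measures only the spread between these libraries.

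Library depth was 20071567 to 45914262 counts in genes, and libraries of 1 group never agreed within sampling noise. The labelled cell types were checked against marker lists, as the summed CPM of each list (counts scaled to a common library total, with TMM factors over all 17 libraries). Primitive endoderm regulators summed to 1261 to 4231 CPM in the 14 iXEN and XEN libraries, against 848 to 1032 CPM in MEF, where Pdgfra and Dab2 were also present. Parietal endoderm markers summed to 461 to 5326 CPM in iXEN and XEN libraries and 313 to 441 CPM in MEF, and visceral endoderm markers to 69.5 to 903 CPM and 38.9 to 87.5 CPM. Fibroblast markers summed to 0.532 to 7686 CPM in iXEN and XEN libraries, against 35601 to 49900 CPM in MEF. The highest iXEN and XEN sums were those of XEN library 1 in ESC medium (7686 CPM) and of iXEN libraries 2 (2340 CPM) and 9 (1017 CPM) in XEN medium. Macrophage markers summed to 2.64 to 27.5 CPM in iXEN and XEN libraries and 28.1 to 96.3 CPM in MEF, pluripotency markers to 28.3 to 124 CPM and 35.3 to 63.8 CPM, and definitive endoderm and streak markers to 0.555 to 8.88 CPM and 2.01 to 4.09 CPM.

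The libraries of XEN number 7 stood apart in both media. Their parietal endoderm markers summed to 552 CPM in XEN medium and 461 CPM in ESC medium, below the 1552 to 5326 CPM of the other 12 iXEN and XEN libraries. Their endothelial markers summed to 1776 and 1347 CPM, above the 94.1 to 734 CPM of those 12 and the 97.5 to 128 CPM of MEF, and all 12 endothelial markers had more than 3 counts. Results that rest on number 7 are given with and without it. These are bulk libraries, in which fewer cells of a type and less RNA per cell cannot be told apart.

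Sox17, a primitive endoderm and endothelial transcription factor, was high in every iXEN and XEN library and near 0 in MEF. In iXEN cells it stood at 318, 356, 335 and 144 CPM in libraries 1, 2, 6 and 9 in XEN medium, and at 99.7, 252, 233 and 163 CPM in ESC medium. In XEN cells it stood at 335, 337 and 250 CPM in libraries 1, 2 and 7 in XEN medium, and at 227, 258 and 372 CPM in ESC medium. The 3 MEF libraries had 0.0774, 0.339 and 0.206 CPM, from 2, 9 and 7 counts. No iXEN or XEN library came near MEF, and the 14 libraries lay within a 3.73-fold range around a median of 255 CPM. XEN library 7, which stood apart by its markers, held the highest Sox17 level of all in ESC medium and the lowest of its group in XEN medium.

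Ordered by mean, Sox17 was at 308 ± 49.7 CPM in XEN cells in XEN medium (SD, n = 3), 288 ± 97.5 CPM in iXEN cells in XEN medium (n = 4) and 285 ± 76.3 CPM in XEN cells in ESC medium (n = 3). It was at 187 ± 69.7 CPM in iXEN cells in ESC medium (n = 4) and 0.207 ± 0.131 CPM in MEF (n = 3). The first 4 means in this order overlapped within their SDs from one to the next, and the gap to MEF was the only one between neighbours without overlapping values. The counting of reads was not stated to use strand, and Sox17 overlaps Gm37587, a transcript on the opposite strand in GENCODE M21 that is not a row of the count files. Reads of Sox17 and of Gm37587 cannot be told apart here.

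Sox7, the other SoxF gene of the primitive endoderm, was high in 12 of the 14 iXEN and XEN libraries and nearly absent in XEN number 7. In iXEN cells it stood at 219, 91.5, 185 and 130 CPM in libraries 1, 2, 6 and 9 in XEN medium, and at 135, 136, 123 and 115 CPM in ESC medium. In XEN cells it stood at 272, 169 and 0.805 CPM in libraries 1, 2 and 7 in XEN medium, and at 40.7, 207 and 0.470 CPM in ESC medium. The MEF libraries had 0.387, 0.452 and 0.560 CPM, from 10, 12 and 19 counts. The ESC medium library of XEN number 7 lay inside the MEF range, and its XEN medium library lay just above it.

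By their counting intervals both XEN number 7 libraries were close to MEF. Its 18 Sox7 counts in ESC medium give an exact Poisson 95% interval of 0.278 to 0.742 CPM, and its 41 counts in XEN medium give 0.578 to 1.09 CPM. The intervals of the MEF libraries ran from 0.186 to 0.712 CPM in the lowest and from 0.337 to 0.874 CPM in the highest. The mean of the other 2 XEN libraries was 274-fold that of number 7 in XEN medium and 263-fold in ESC medium. Over all 14 libraries Sox7 spanned a 579-fold range, and over the 12 without number 7 a 6.68-fold range, with XEN library 1 in ESC medium the lowest.

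By group, Sox7 was at 156 ± 56.8 CPM in iXEN cells in XEN medium (SD, n = 4), 147 ± 137 CPM in XEN cells in XEN medium (n = 3) and 127 ± 9.94 CPM in iXEN cells in ESC medium (n = 4). It was at 82.6 ± 109 CPM in XEN cells in ESC medium (n = 3) and 0.466 ± 0.0871 CPM in MEF (n = 3). The SDs of the XEN groups are about as large as their means, and no 2 neighbours in this order were set apart beyond their spread. Without library 7, XEN cells were at 220 ± 72.9 CPM in XEN medium and 124 ± 117 CPM in ESC medium (n = 2 each). The iXEN libraries in ESC medium were the most alike of any group.

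Sox18, the family member known from vessels and lymphatics, was hardly counted in any library. It had 0, 2, 0 and 2 counts in iXEN libraries 1, 2, 6 and 9 in XEN medium, and 0, 0, 1 and 0 counts in ESC medium. It had 0, 0 and 4 counts in XEN libraries 1, 2 and 7 in XEN medium, and 46, 6 and 1 counts in ESC medium. The 3 MEF libraries had 0 counts each, which allows a level of up to 0.116, 0.113 and 0.0884 CPM (3 counts, counting error only). Of the 62 counts in the 14 iXEN and XEN libraries, 46 came from XEN library 1 in ESC medium alone, which gave 2.11 CPM (exact Poisson 95% interval 1.54 to 2.81 CPM).

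Only 3 libraries, all of XEN cells, held more than 3 counts of Sox18. Pooled over the group, XEN cells in ESC medium had 53 counts, which is at least 17.9-fold higher than the floor of 3 counts over the MEF group. Without library 1 it had 7 counts, at least 3.08-fold higher than that floor. The other 3 iXEN and XEN groups had 4, 1 and 4 pooled counts, at or near that floor, and no fold is given for them. Sox18 did not pass the filter on low counts in any of the 9 comparisons. Fitted without that filter, it reached an adjusted p of 0.0925 in edgeR for XEN cells in ESC medium against MEF, and 0.236 to 0.999 in the other 8 comparisons. XEN library 1 in ESC medium, the one with 46 counts, also had the highest summed fibroblast markers outside MEF (7686 CPM), while MEF themselves had 0 Sox18 counts. Its 12 endothelial markers summed to 313 CPM, against 97.5 to 128 CPM in MEF, with 8 of them at more than 3 counts. Cdh5 at 129.6 CPM and Tek at 77.7 CPM made up most of that sum, while Pecam1 was at 0.0918 CPM, Tie1 at 0.138 CPM and Emcn at 0. The part of other cell types in its Sox18 counts was not tested.

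**Figure D1:**
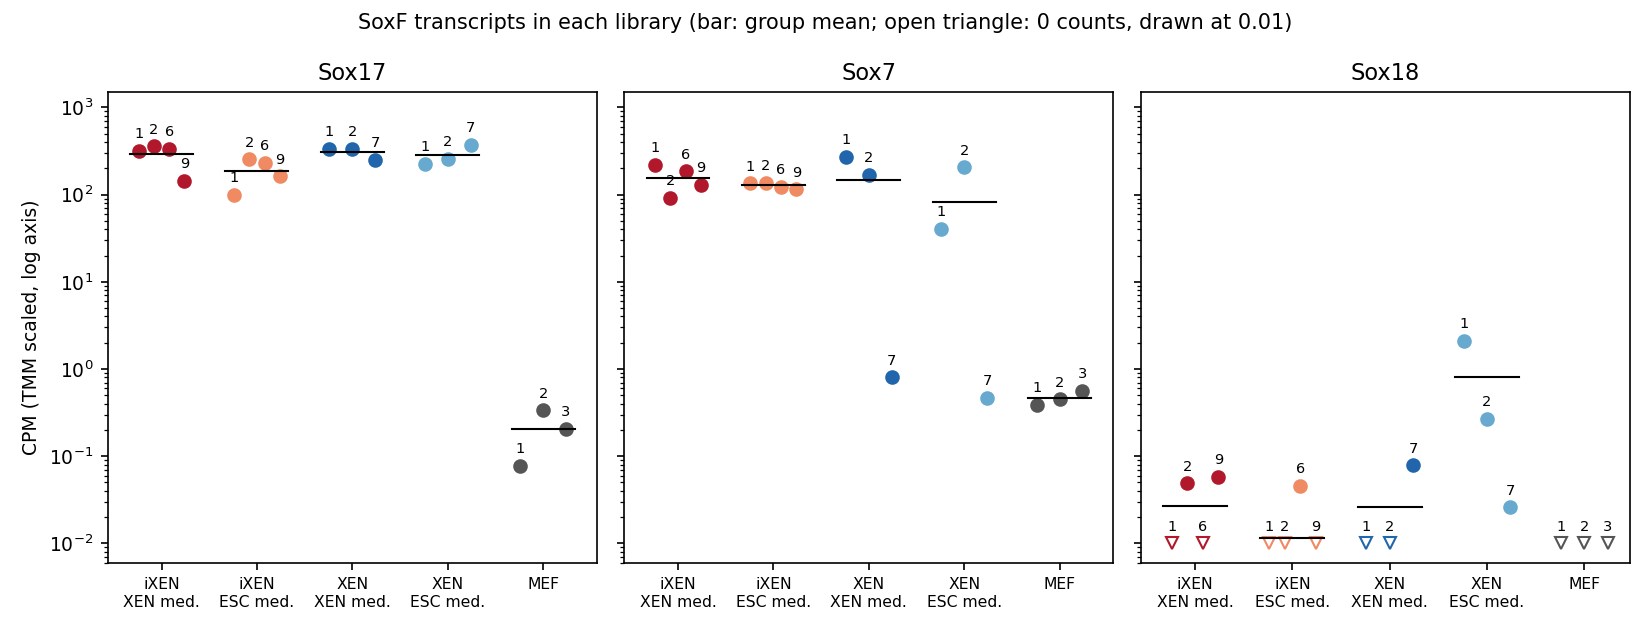
CPM on a log axis of Sox17, Sox7 and Sox18 in each of the 17 libraries, by group, with the library number above each point and the group mean as a bar; open triangles stand for 0 counts. All 14 iXEN and XEN libraries lie at 99.7 CPM or above for Sox17, both number 7 libraries of XEN cells lie with MEF for Sox7, and Sox18 exceeds 1 CPM in XEN library 1 in ESC medium alone.

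To compare the levels of different genes, CPM were divided by the length of the gene's exons in kilobases. The lengths are 4772 bases for Sox17, 3299 for Sox7 and 1620 for Sox18, from GENCODE M21 on GRCm38, whereas the authors' build was mm9 and their annotation is not given in the sources used here. On this scale Sox17 averaged 60.4 ± 20.4 CPM per kb and Sox7 47.4 ± 17.2 CPM per kb in iXEN cells in XEN medium (SD, n = 4). In iXEN cells in ESC medium the levels were 39.2 ± 14.6 and 38.6 ± 3.01 CPM per kb (n = 4). Both transcripts were thus present at a similar level per length in iXEN cells.

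Within single iXEN libraries the level of Sox7 per 100 of Sox17, per length, was 99.8, 37.1, 79.6 and 131 in libraries 1, 2, 6 and 9 in XEN medium and 195, 77.9, 76.5 and 102 in ESC medium. In XEN libraries 1, 2 and 7 it was 117, 72.4 and 0.465 in XEN medium and 26.0, 116 and 0.183 in ESC medium. The balance between the 2 genes therefore went either way among libraries of each kind, and in XEN number 7 nearly all SoxF transcript was Sox17.

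**Figure D2:**
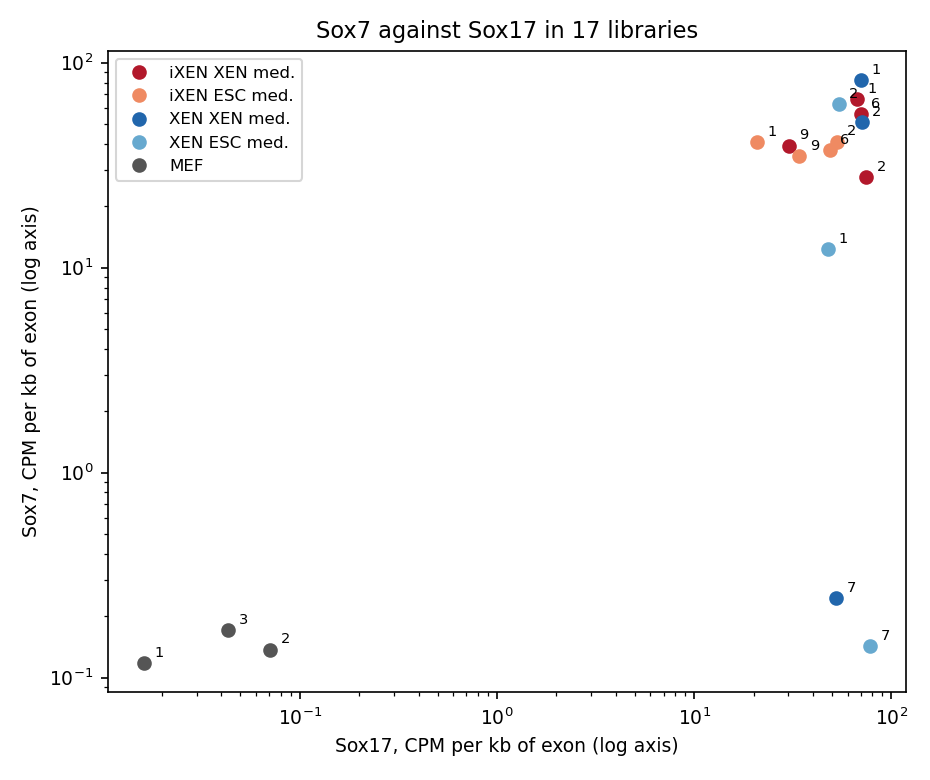
Sox7 against Sox17, each in CPM per kb of exon on a log axis, with 1 point per library, coloured by group and labelled with its number. MEF lie at the lower left, 12 iXEN and XEN libraries at the upper right, and the 2 libraries of XEN number 7 at the lower right, with Sox17 as in the other XEN libraries and Sox7 as in MEF.

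Across the 14 iXEN and XEN libraries the log2 levels of Sox17 and Sox7 had a Pearson r of -0.17 and a Spearman rho of 0.13, and over the 12 without XEN number 7 an r of 0.27. Libraries of a group share a medium and may share lines, and these values carry no test.

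The comparison with MEF asks how far SoxF transcripts set iXEN and XEN cells apart from fibroblasts. Sox17 and Sox7 rose in all 4 comparisons, with edgeR's quasi-likelihood test and Benjamini-Hochberg adjustment over all genes tested at 0.05. Sox17 was higher by 9.81 on the log2 scale in iXEN cells in ESC medium (SE 0.60, adjusted p = 6.44e-06) and by 10.48 in iXEN cells in XEN medium (SE 0.70, adjusted p = 0.000309). It was higher by 10.46 in XEN cells in ESC medium (SE 0.65, adjusted p = 0.00248) and by 10.55 in XEN cells in XEN medium (SE 0.54, adjusted p = 0.000143). Every iXEN and XEN library lay above every MEF library.

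Sox7 was higher by 8.10 on the log2 scale in iXEN cells in ESC medium (SE 0.25, adjusted p = 4.92e-07) and by 8.44 in iXEN cells in XEN medium (SE 0.45, adjusted p = 0.000195), with no overlap with MEF. It was higher by 7.49 in XEN cells in ESC medium (SE 1.97, adjusted p = 0.0382), where library 7 overlapped MEF, and by 8.33 in XEN medium (SE 1.97, adjusted p = 0.0160). The 95% intervals of the XEN estimates were wide, 2.75 to 12.24 in ESC medium and 3.56 to 13.10 in XEN medium. Without XEN library 7 the difference from MEF was 8.11 in ESC medium (SE 0.76, adjusted p = 0.00249) and 8.91 in XEN medium (SE 0.32, adjusted p = 4.27e-05). In ESC medium the adjusted p was 0.0538 without XEN library 1 and 0.132 to 0.139 without any 1 of the MEF libraries, and in XEN medium it was 0.0646 to 0.0689 without any 1 of the MEF libraries.

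Large parts of the transcriptome differed from MEF in the same tests, and the 4 comparisons share the 3 MEF libraries. In iXEN cells in ESC medium 20.8% of 14352 genes were called higher and 25.9% lower, and in XEN cells in ESC medium 11.4% of 14001 higher and 13.7% lower. In XEN medium the shares were 17.7% higher and 14.9% lower of 14438 genes for iXEN cells, and 23% higher and 24.5% lower of 14390 genes for XEN cells. The median log2 fold change of all genes tested lay between -0.03 and 0.06, beside 7.49 to 10.55 for Sox17 and Sox7.

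**Figure D3:**
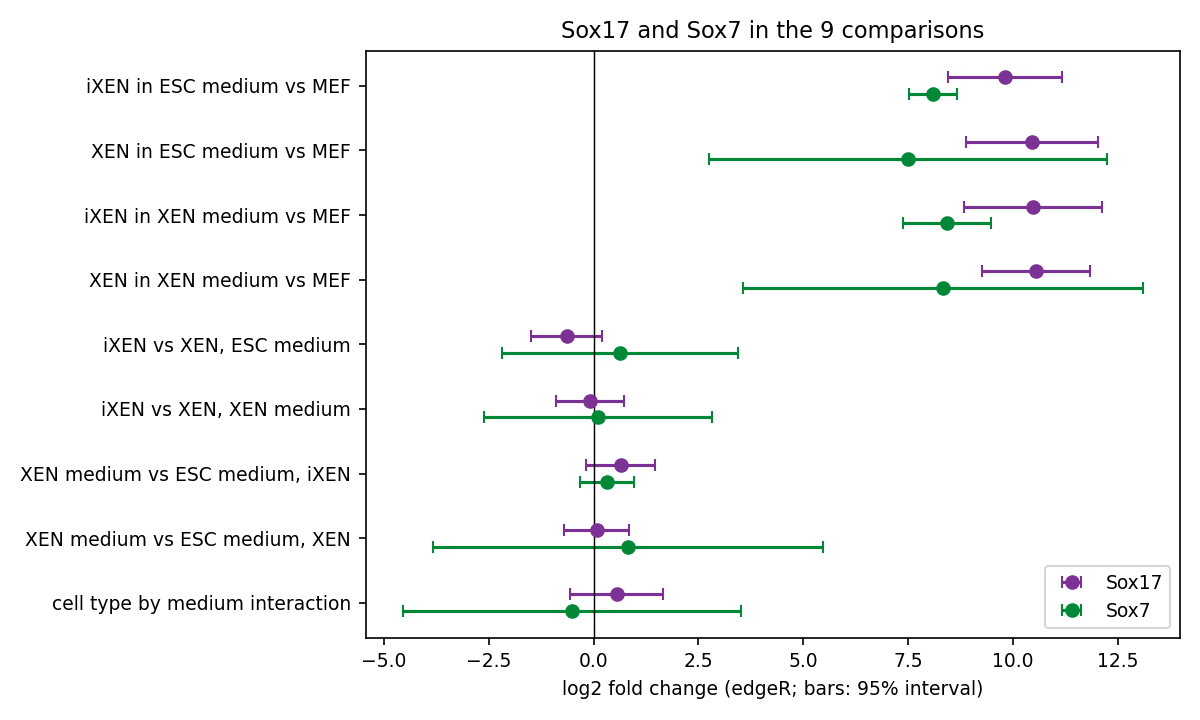
Log2 fold change with its 95% interval from edgeR for Sox17 and Sox7 in each of the 9 comparisons, the first-named group over the second. The 4 comparisons with MEF lie between 7.49 and 10.55, with wide intervals for Sox7 in XEN cells, and the intervals of the other 5 include 0.

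iXEN cells were set against XEN cells to ask whether reprogrammed cells hold SoxF transcripts at the level of XEN cells. No difference was detected in either medium. In ESC medium Sox17 was at 187 ± 69.7 CPM in iXEN cells (n = 4) and 285 ± 76.3 CPM in XEN cells (n = 3), a log2 difference of -0.64 (95% interval -1.49 to 0.20, adjusted p = 0.425 in edgeR). In XEN medium the means were 288 ± 97.5 CPM in iXEN cells and 308 ± 49.7 CPM in XEN cells, a log2 difference of -0.09 (-0.89 to 0.72, adjusted p = 0.987 in edgeR). The groups overlapped in both media, and the intervals leave room for a Sox17 level in iXEN cells that is lower by 1.49 on the log2 scale in ESC medium. Without library 7 the XEN means were 242 ± 22.1 CPM in ESC medium and 336 ± 1.43 CPM in XEN medium (n = 2 each). With any 1 library left out the log2 difference ran from -0.81 to -0.39 in ESC medium and from -0.22 to 0.14 in XEN medium, and was not called.

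Sox7 differed between iXEN and XEN cells by 0.62 on the log2 scale in ESC medium (95% interval -2.20 to 3.44, adjusted p = 0.804 in edgeR) and by 0.10 in XEN medium (-2.63 to 2.83, adjusted p = 0.995). Without XEN library 7 the difference was 0.04 in ESC medium (adjusted p = 0.990) and -0.49 in XEN medium (adjusted p = 0.99998). Without XEN library 2 it was 2.58 in ESC medium (adjusted p = 0.223), and without XEN library 1 there 0.30 (adjusted p = 0.938). The lowest Sox7 level of the 8 iXEN libraries was 91.5 CPM. Below it lay XEN number 7 in both media (0.805 and 0.470 CPM) and XEN library 1 in ESC medium (40.7 CPM). This cut was read from the same data and tests nothing. The edgeR test called 0% of the 12944 genes tested in ESC medium, with 1770 at an unadjusted p under 0.05 and 394 called by DESeq2. It called 0% of the 13263 genes tested in XEN medium, with 544 at an unadjusted p under 0.05 and 75 called by DESeq2.

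XEN medium was set against ESC medium in either cell type. In iXEN cells, whose numbers were not taken as pairs, Sox17 ran from 144 to 356 CPM in XEN medium and from 99.7 to 252 CPM in ESC medium. The log2 difference between the groups was 0.64 (95% interval -0.18 to 1.47, adjusted p = 0.32 in edgeR), and the groups overlapped. Sox7 ran from 91.5 to 219 CPM in XEN medium and from 115 to 136 CPM in ESC medium, with a log2 difference of 0.31 (-0.33 to 0.96, adjusted p = 0.534). Number 9 in XEN medium, the lowest Sox17 library of its group at 144 CPM, also had Sox2 at 48.2 CPM, Pou5f1 at 58.4 CPM and Cd34 at 679 CPM, where the other 3 libraries of the group had at most 0.0738, 1.38 and 80.9 CPM. The part of these in its Sox17 level was not tested.

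In XEN cells Sox17 was 1.48- and 1.31-fold as high in XEN medium as in ESC medium in numbers 1 and 2, and 0.673-fold in number 7. The log2 difference was 0.08 (95% interval -0.70 to 0.85, adjusted p = 0.970 in edgeR) with number 7 and 0.43 (adjusted p = 0.703) without it. Sox7 was 6.68-, 0.817- and 1.71-fold as high in XEN medium in numbers 1, 2 and 7, with a log2 difference of 0.82 (-3.83 to 5.47, adjusted p = 0.938) and likewise 0.82 (adjusted p = 0.729) without number 7 in both media. With 1 library left out it ran from 0.03 without library 1 in XEN medium to 2.77 without library 2 in ESC medium, and was not called. The 6.68-fold difference of number 1 stood beside a summed fibroblast marker level of 7686 CPM in its ESC medium library, and the part of these markers in it was not tested.

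The difference of the medium effects between iXEN and XEN cells was 0.55 on the log2 scale for Sox17 (95% interval -0.55 to 1.66, adjusted p = 0.603 in edgeR) and -0.51 for Sox7 (-4.56 to 3.53, adjusted p = 0.910). Without XEN number 7 it was 0.19 for Sox17 (adjusted p = 0.921) and -0.52 for Sox7 (adjusted p = 0.814). No medium effect on either gene was detectable at this spread. In edgeR 0% of genes were called for medium in iXEN cells (12920 tested, 3018 at an unadjusted p under 0.05, 1537 called by DESeq2). The same held for medium in XEN cells, with 0% (13241 tested, 746 at an unadjusted p under 0.05, 63 called by DESeq2), and for the interaction, with 0% (14357 tested, 2131 at an unadjusted p under 0.05, 466 called by DESeq2).

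**Figure D4:**
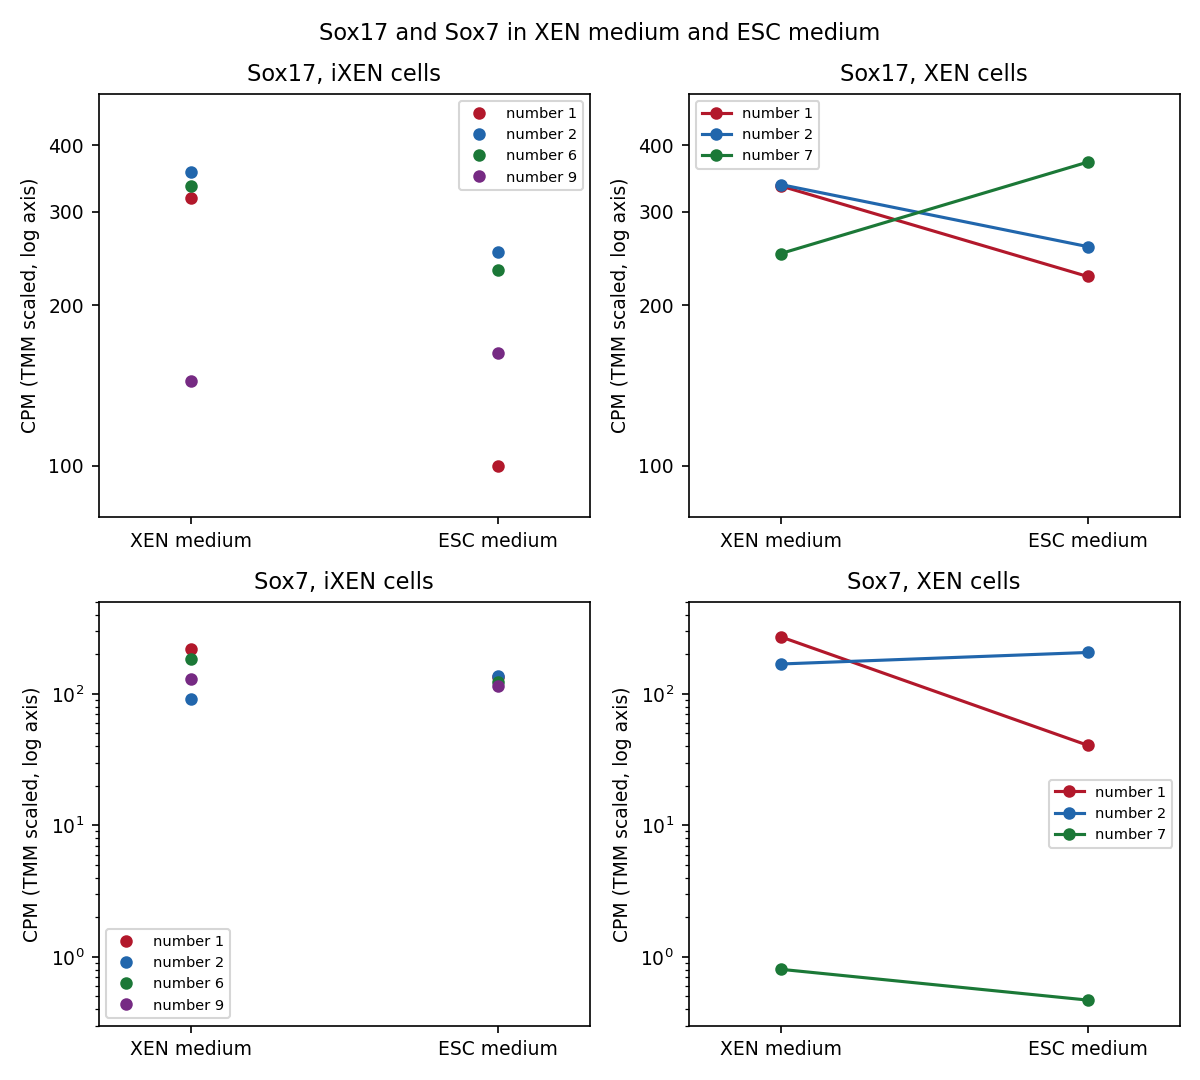
CPM on a log axis of Sox17 (top) and Sox7 (bottom) in XEN medium and ESC medium, with 1 point per library coloured by its number, for iXEN cells (left) and XEN cells (right); lines join same-numbered XEN libraries. In XEN cells Sox17 is higher in XEN medium in numbers 1 and 2 and lower in number 7, and Sox7 of number 7 stays under 1 CPM in both media.

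Other transcription factors of the primitive endoderm were present in XEN number 7, some below and some above their levels elsewhere, while Sox7 was nearly absent. In its XEN medium and ESC medium libraries Gata4, a zinc finger factor of the primitive endoderm, was at 414 and 351 CPM, and Gata6, its partner at the top of the lineage, at 205 and 152 CPM. Foxq1 was at 160 and 134 CPM and Foxa2 at 162 and 204 CPM, both forkhead factors and both above the range of the other 12 iXEN and XEN libraries in each medium. Gata4 and Gata6 were below that range. The Pdgf receptor Pdgfra was at 119 and 25.5 CPM and the basement membrane laminin Lama1 at 3025 and 1445 CPM, both also below all 12.

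Several endothelial markers, though not all, were high in the same 2 libraries. In XEN medium and ESC medium the clotting factor carrier Vwf was at 649 and 624 CPM, the adhesion molecule Pecam1 at 179 and 91.9 CPM and the receptor Tie1 at 147 and 104 CPM. In the other 12 iXEN and XEN libraries these 3 genes reached at most 55.3, 7.38 and 4.8 CPM, and in MEF at most 2.56, 0.116 and 0.0387 CPM. Fli1, an ETS factor of endothelium, was at 37.9 and 31.8 CPM and the adhesion molecule Icam2 at 81.9 and 180 CPM. Esam, which is also an endothelial junction protein, was at 0.295 and 0.470 CPM and below every other iXEN and XEN library, and Sox18 had 4 and 1 counts. In all XEN libraries of both media Cd34 lay below every MEF library. Its log2 fold changes were -7.48 in XEN medium and -2.17 (not called) in ESC medium. Erg lay below every MEF library in ESC medium (-5.15) and overlapped MEF in XEN medium, while Cdh5 and Tek lay above MEF in both. The part of other cell types in the Sox7 level of number 7 was not tested.

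**Figure D5:**
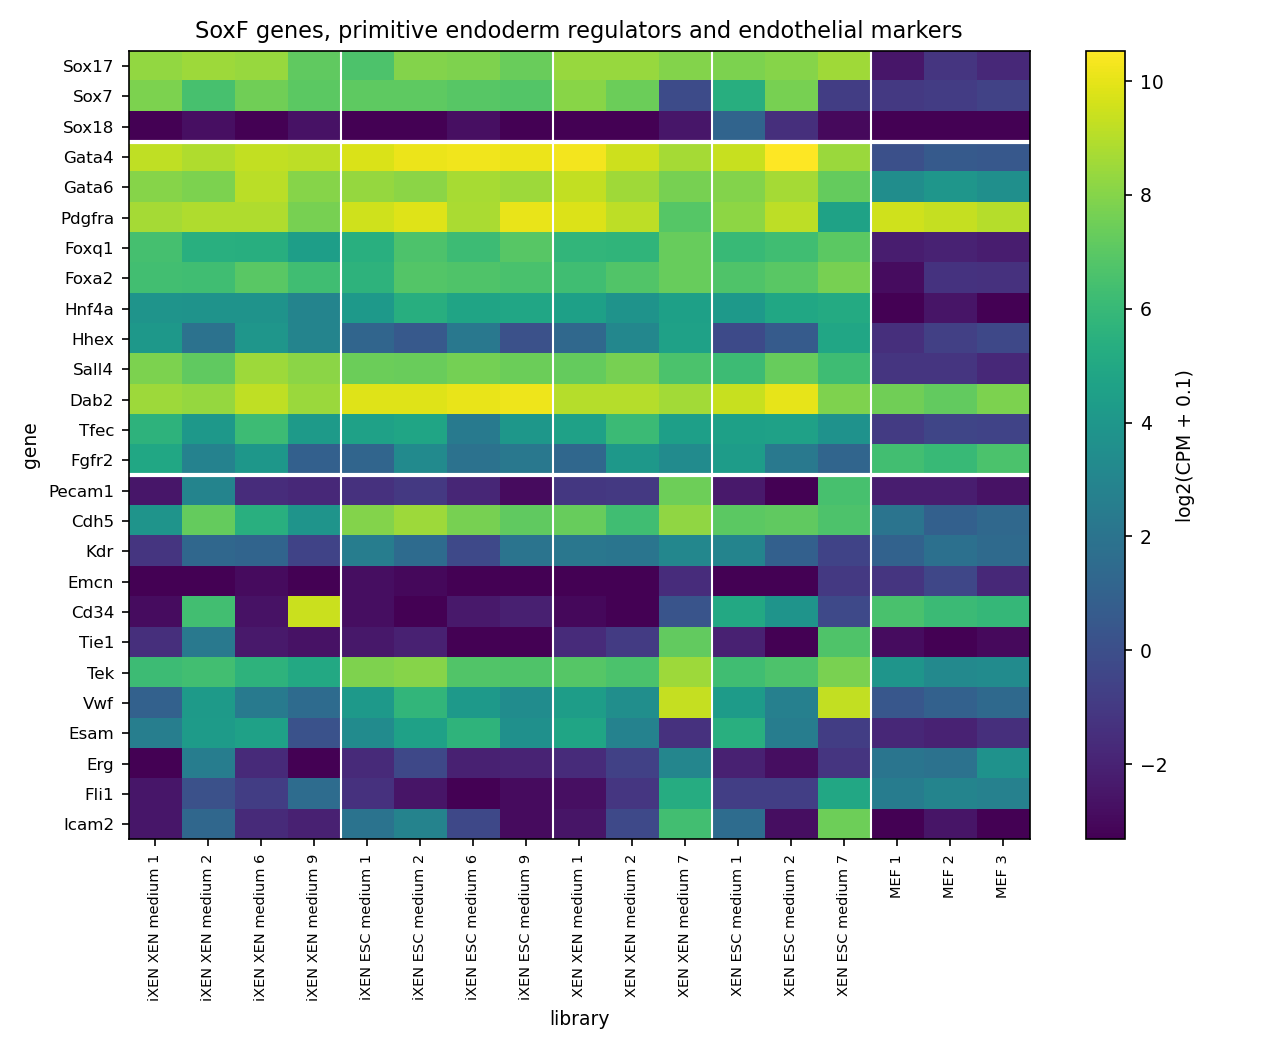
Log2(CPM + 0.1) of the SoxF genes (top block), primitive endoderm regulators other than 1 that is not reported (middle) and endothelial markers (bottom) in the 17 libraries, with lines between groups. The number 7 libraries of XEN cells are dark for Sox7 and bright for Pecam1, Tie1, Vwf, Fli1 and Icam2, while Sox17, Gata4 and Foxa2 remain far above MEF there.

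The genes whose levels followed each SoxF gene most closely over the 14 iXEN and XEN libraries were taken by Pearson r of log2 CPM. They are the 5 highest of 10135 genes (10136 for Sox18) with a mean of at least 5 CPM, picked by the r itself. For Sox17 they were Vti1a (r 0.81), a vesicle SNARE, Ube2c (0.79), a ubiquitin enzyme of mitosis, Thap1 (0.79), Crem (0.77), a cAMP-responsive factor, and C330018D20Rik (0.76). For Sox7 they were Pnpla3 (r 0.98), a lipid droplet protein, Pcbd1 (0.98), an enzyme of pterin metabolism, Cemip (0.97), which acts in hyaluronan breakdown, Drp2 (0.97), a dystrophin relative, and Nrcam (0.97), a cell adhesion molecule. Each of these 5 was lowest in a library of XEN number 7, at 0.235 to 0.678 CPM. Without number 7 their r with Sox7 was 0.75, 0.46, 0.39, 0.61 and 0.41 over 12 libraries, so that the close likeness rests on those 2 libraries.

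For Sox18 the closest genes were Hdac3 (r 0.83), a histone deacetylase, the fibrillar collagen gene Col5a2 (0.76), the cadherin gene Cdh11 (0.75), the fibrillin gene Fbn1 (0.75) and the interferon-induced Isg15 (0.74). Without XEN library 1 in ESC medium, which held 46 of the 62 counts, these values were 0.09, 0.68, 0.55, 0.53 and 0.35 over the remaining 13 libraries. The likeness to Hdac3 thus rests on that library, and the other values fell as well when it was left out. All of them rest on sparse counts, since only 7 of the 14 libraries held any count of Sox18. Libraries of a group share medium, depth range and possibly lines, and none of these correlations was tested.

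The other regulators of the primitive endoderm rose along with Sox17 and Sox7 against MEF. Of 12 such genes tested, 10 were higher and 1 lower in iXEN cells in ESC medium, 10 higher and 1 lower in iXEN cells in XEN medium, and 10 higher and 1 lower in XEN cells in XEN medium. In XEN cells in ESC medium 8 were higher and 1 lower, and without library 7 there 9 were higher and 1 lower. Of all genes tested 20.8%, 17.7%, 23% and 11.4% were higher in these groups in turn, and 25.9%, 14.9%, 24.5% and 13.7% lower. With any 1 library left out 8 to 10 were higher in each comparison. The median log2 fold change of the 12 was 6.90, 7.39, 7.62 and 6.85 in these groups, beside -0.03 to 0.06 over all genes tested. Earlier results of these data were known when the list was written, so its counts are a description.

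Gata4 averaged 1071 CPM in iXEN cells in ESC medium and 1.22 CPM in MEF, a log2 fold change of 9.81 (adjusted p = 6.15e-07 in edgeR). Hnf4a, a nuclear receptor of visceral endoderm, had only 2 counts in MEF. Its pooled level was 1361-fold higher in iXEN cells in ESC medium (exact 95% counting interval 377 to 11246), and 1232-fold (341 to 10180) in XEN cells in ESC medium. In XEN medium it was 524-fold higher (145 to 4327) in iXEN cells and 940.1-fold (260.0 to 7767) in XEN cells. Foxq1 was higher by 9.51 in XEN cells in ESC medium and 9.46 in XEN medium. In iXEN cells in XEN medium the spalt factor Sall4 was higher by 9.78.

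Fgfr2, a receptor for FGF, fell in all 4 comparisons, with log2 fold changes of -3.13 in XEN cells in ESC medium, -3.01 in XEN cells in XEN medium, -3.96 in iXEN cells in ESC medium and -2.53 in iXEN cells in XEN medium. It was no longer called without XEN library 2 in ESC medium, without iXEN library 2 or 6 in XEN medium, or, in those 2 groups, without any 1 MEF library. Pdgfra, which is also a fibroblast receptor, was not called, with log2 fold changes of 0.36 and -0.63 in iXEN cells and -1.06 and -0.24 in XEN cells in ESC and XEN medium. Dab2, an endocytic adaptor, and Hhex, a homeobox factor, were not called in XEN cells in ESC medium, at 1.85 (adjusted p = 0.0528 in edgeR) and 4.48 (adjusted p = 0.0760). Hhex was at 29.8 CPM in XEN library 7 there, and at 0.780 and 1.48 CPM in libraries 1 and 2.

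Several basement membrane genes are known to be activated by SoxF factors in endoderm. Of the 10 listed, 8 were higher and 1 lower in iXEN cells in ESC medium, beside 20.8% and 25.9% of all genes. In XEN cells in ESC medium 5 were higher and 1 lower, beside 11.4% and 13.7%. In XEN medium 5 were higher and 1 lower in iXEN cells, beside 17.7% and 14.9% of all genes. In XEN cells there 3 were higher and 2 lower, near the 23% and 24.5% of all genes. Without XEN library 7 the XEN counts were 8 higher and 1 lower in ESC medium, and 6 higher and 2 lower in XEN medium. Without XEN library 1 they were 3 higher in ESC medium and 5 higher in XEN medium. Without any 1 of the MEF libraries 0 were called in XEN cells in ESC medium and 3 were higher in iXEN cells in XEN medium. Calls over all genes also fell without a MEF library, to as few as 372 in the former and 1842 in the latter. Without iXEN library 2 in XEN medium 2 were lower. The list's median log2 fold change was 3.44 for iXEN and 3.46 for XEN cells in ESC medium, and 1.98 for iXEN and 1.61 for XEN cells in XEN medium.

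The laminin genes Lama1, Lamb1 and Lamc1 rose in all 4 comparisons, in XEN cells in ESC medium only with all 3 MEF libraries in the fit. Lama1 was higher by 9.45 in iXEN and 8.45 in XEN cells in ESC medium, and by 7.60 in iXEN and 8.04 in XEN cells in XEN medium. Lamc1 was higher by 3.74 in iXEN cells in XEN medium, and the collagen gene Col4a1 by 4.56 in XEN cells in ESC medium. The list's gene called lower in XEN cells in ESC medium and in iXEN cells in XEN medium was Hspg2, at -1.11 and -1.69. Hspg2 was also lower in XEN cells in XEN medium, at -2.04. Fibronectin, Fn1, was called lower than in MEF in iXEN cells in ESC medium and XEN cells in XEN medium, with log2 fold changes of -5.55 and -7.67. Fn1 was not called in XEN cells in ESC medium (-3.73) or iXEN cells in XEN medium (-3.89). Its MEF level was 8132 CPM on average, and the fibroblast markers fell beside it, 10 of 10 in iXEN cells in ESC medium, 2 of 10 in XEN cells in ESC medium, 0 of 10 in iXEN cells in XEN medium and 9 of 10 in XEN cells in XEN medium. Of all genes tested 25.9%, 13.7%, 14.9% and 24.5% were lower in these groups. The fibroblast list's median log2 fold change was -10.87, -3.87, -4.61 and -12.83 in the same order, so few calls did not mean levels near MEF. Fibroblast markers fell in 5 of 10 without XEN library 1 in ESC medium, and in 0 there without XEN library 2 or any 1 MEF library. They fell in 4 of 10 without iXEN library 2 in XEN medium. Without a MEF library as few as 372 of all genes were called in XEN cells in ESC medium.

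Genes described as SoxF targets in endothelium were called in both directions. Of 12 tested, 4 were higher and 4 lower in iXEN cells in ESC medium, and 4 were higher and 2 lower in each of the other 3 comparisons. Of all genes tested 11.4% to 23% were higher and 13.7% to 25.9% lower, so that the 2 lower of 12 are near the background. The 4 higher genes were the same in all 4 comparisons: Cdh5, the cadherin of endothelial junctions, the receptor gene Tek, the secreted factor gene Egfl7 and the homeobox gene Prox1. Cdh5 was higher by 6.48 and 5.54 in iXEN and XEN cells in ESC medium and by 4.44 and 6.09 in XEN medium. Without XEN library 7, or iXEN library 2, in XEN medium 4 were lower, and without XEN library 2 in XEN medium 1 was. Without 1 of the MEF libraries 1 to 3 were higher and 1 lower in XEN cells in ESC medium. In XEN medium 2 were then higher and 2 lower in iXEN cells, and 1 was lower in XEN cells. Calls over all genes fell there too, to as few as 372, 1842 and 3985 in these groups in turn. Prox1 was higher by 6.40 and 4.54 in iXEN and XEN cells in ESC medium, Egfl7 by 3.5 in iXEN cells in XEN medium, and Tek by 4.11 in XEN cells in XEN medium.

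Cldn5, a tight junction gene that Sox18 activates in vessels, had 0 counts in all 17 libraries, and a level of up to 0.0589 to 0.138 CPM is allowed by depth. Nrp1, a receptor for Vegf and semaphorins, had log2 fold changes of -4.62 in iXEN and -2.78 in XEN cells in ESC medium, and of -3.18 in iXEN and -3.06 in XEN cells in XEN medium. The list's median log2 fold change lay between -0.01 and 0.97. Among the endothelial markers themselves, 5 were higher and 3 lower of 9 tested in iXEN cells in ESC medium, and 4 higher and 1 lower of 8 in XEN cells in ESC medium. In XEN medium 3 were higher and 0 lower of 8 in iXEN cells. In XEN cells there 5 were higher and 1 lower of 9. Across these comparisons 11.4% to 23% of all genes were higher and 13.7% to 25.9% lower. Without XEN library 7, 2 endothelial markers were lower in XEN cells in ESC medium and 4 in XEN medium. Without 1 of the MEF libraries 1 to 2 were higher in XEN cells in either medium and in iXEN cells in XEN medium. Calls over all genes then fell to as few as 372 and 3985 in XEN cells in ESC and XEN medium, and 1842 in iXEN cells. Without iXEN library 2 or 9 in XEN medium 1 was lower. Cdh5 and Tek are in both lists.

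Partners and cofactors of SoxF proteins were called in both directions against MEF, at shares that in 2 of the 4 groups were near those of all genes. In iXEN cells in ESC medium 4 of 10 were higher and 2 lower, beside 20.8% and 25.9% of all genes. In XEN cells in ESC medium 1 of 10 was higher and 2 lower, beside 11.4% and 13.7%. In XEN medium 2 of 11 were higher and 1 lower in iXEN cells, beside 17.7% and 14.9% of all genes. In XEN cells there 4 of 10 were higher and 3 lower, beside 23% and 24.5%. Without XEN library 7 the XEN counts were 3 higher and 3 lower in ESC medium, and 5 higher and 4 lower in XEN medium. Without iXEN library 2 in XEN medium 3 were lower, without iXEN library 1 there 2, and without XEN library 2 in ESC medium 4. Without XEN library 1 in either medium 1 was lower. Without 1 of the MEF libraries 0 or 1 were called in each direction in both XEN groups and 1 in each direction in iXEN cells in XEN medium. Calls over all genes then fell to as few as 372 and 3985 in XEN cells in ESC and XEN medium, and 1842 in iXEN cells. The median log2 fold change was 0.17, -0.71, 0.45 and 0.13 in these 4 groups.

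Tcf7l2, a DNA-binding partner of beta-catenin, was higher in all 4 comparisons, by 2.31 and 1.58 in iXEN and XEN cells in ESC medium and by 2.26 and 1.68 in XEN medium. Smad3, a mediator of Nodal and TGF-beta signals, fell, with log2 fold changes of -1.27 in iXEN and -1.64 in XEN cells in ESC medium, and of -2.01 in iXEN and -1.46 in XEN cells in XEN medium. Pou5f1, which pairs with Sox17 in endoderm and is one of the OSKM factors, was higher by 3.70 in iXEN cells in ESC medium, 8.06 in iXEN cells in XEN medium and 4.92 in XEN cells in XEN medium. It stood at 0.392 to 1.11 CPM in iXEN cells in ESC medium and at 0.0295 to 0.116 CPM in MEF. The 8.06 rests on iXEN library 9, at 58.4 CPM, beside 0.570 to 1.38 CPM in the other 3.

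The partners that were not called had these log2 fold changes. In iXEN cells in ESC medium, Mef2c was at -1.46, Tcf7 at 0.41, Smad4 at -0.26 and Ctnnb1 (beta-catenin) at -0.07. In XEN cells in ESC medium, Mef2c was at -1.45, Tcf7l1 at 0.98, Smad4 at -0.77, Lef1 at -0.73, Ctnnb1 at -0.68, Tcf7 at -0.64 and Smad2 at 0.03. Ctnnb1 was called in none of the 4 comparisons. In iXEN cells in XEN medium, Mef2c was at -3.39, Tcf7 at 2.02, Rbpj at -0.89, Tcf7l1 at 0.86, Ctnnb1 at -0.76, Lef1 at 0.58, Smad2 at 0.45 and Smad4 at -0.31. In XEN cells in XEN medium, Tcf7l1 was at 0.48, Mef2c at -0.46 and Ctnnb1 at -0.23. The genes that fell besides Smad3 were Rbpj, the DNA-binding factor of the Notch pathway, in iXEN cells in ESC medium and in XEN cells in both media, with log2 fold changes of -1.02, -1.41 and -1.29, and Smad4 in XEN cells in XEN medium, at -0.44.

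Among the 17 other Sox genes of the count files, Sox21, a SoxB2 gene, had the largest rise of those tested in each comparison with MEF. Of 10 tested, 2 were higher and 7 lower in iXEN cells in ESC medium, beside 20.8% and 25.9% of all genes. In XEN cells in ESC medium 1 was higher and 3 lower, beside 11.4% and 13.7%. In XEN medium 2 were higher and 3 lower in iXEN cells, beside 17.7% and 14.9%. In XEN cells there 2 were higher and 4 lower, beside 23% and 24.5%. The shares called higher were thus near those of all genes in each comparison. Without iXEN library 2 in XEN medium 6 were lower, and without XEN library 7 in XEN medium 7. Without XEN library 2 in ESC medium 2 were higher, and without 1 of the MEF libraries 1 was lower in XEN cells in ESC medium and 1 higher in iXEN cells in ESC medium. With 1 library left out, counts of all genes called also moved, from 5064 to 8081 in iXEN and 372 to 6056 in XEN cells in ESC medium. In XEN medium they ran from 1842 to 5663 in iXEN and from 3985 to 8965 in XEN cells. Sox21 was higher by 7.79 and 7.38 in iXEN and XEN cells in ESC medium and by 6.93 and 6.62 in XEN medium, but its level stayed at 2.43 to 45.5 CPM in the 14 libraries, against 0.113 to 0.147 CPM in MEF. Sox13, a SoxD gene, was higher in the 3 comparisons other than XEN cells in ESC medium, by 1.66 to 3.46.

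Sox10, the SoxE gene of the neural crest, had 571 counts over the MEF libraries and 0 in iXEN cells, at least 258-fold lower in ESC medium and at least 299.7-fold lower in XEN medium (against 3 counts over the group). With 1 count each, XEN cells were 564-fold lower in ESC medium (exact 95% counting interval 101 to 22323) and 805-fold lower in XEN medium (144 to 31866). The median log2 fold change of the 10 tested Sox genes was -3.48 in iXEN and -0.88 in XEN cells in ESC medium, and -2.80 in iXEN and -2.44 in XEN cells in XEN medium. It is the same with Sox10 at its bound, since Sox10 remains the lowest of the 10.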

How the data were processed

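The authors deposited 1 table of raw counts for each of 17 libraries. HTSeq 0.6.1, FastQC 0.11.3, Trimmomatic 0.32, TopHat2 2.0.12 and build mm9 are named for them, per the submitters' processing notes. The sources used here give no annotation, parameters or strand setting. The 5 lines of the counter itself (20.8% to 33.1% of each file) were left out of library sizes.

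Each comparison was fitted on all genes with edgeR 4.0.16 in R 4.3.3, from the libraries of the groups compared: filterByExpr (minimum count 10, minimum total 15), TMM scaling (factors 0.863 to 1.16), the two-sided quasi-likelihood test and Benjamini-Hochberg adjustment at 0.05. A gene is called, or said to have risen or fallen, when its adjusted p is under 0.05. The SE was taken as the ratio of a log2 fold change to the square root of its F, with 95% intervals from the t distribution at the test's total degrees of freedom. CPM use TMM factors over all 17 libraries, and log2 CPM in correlations have a prior count of 2. A level of 3 counts corresponds to 0.0589 to 0.138 CPM, and counting intervals cover counting error only, with no molecular identifiers. Library pairs within a group differed by a chi-square of 43.4 to 1219 per degree of freedom.

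The members and the 12 gene lists (122 of 123 symbols found) were chosen with earlier results of these data known. Named genes are the members, the 5 genes closest to each by correlation, the 2 called genes without overlapping groups that changed most in each list against MEF, and primitive endoderm regulators and partners not called or going the other way. Of the genes this rule picks among primitive endoderm regulators, 1 is not reported here. For lists of cell type markers, summed levels and counts are given in place of single genes. Scripts were tested on simulated counts. Alternatives were DESeq2 1.42.0, its size factors in edgeR (RLE), no filter on low counts, all 5 groups in the fit, the replicate number as a block, and each library left out in turn. After seeing the data, fits without XEN number 7 in both media, list counts with each library left out, and pooled Sox18 without XEN library 1 in ESC medium, were added. Same-numbered XEN libraries deviated together (correlations of 0.24, 0.39 and 0.64 over 12768 genes), which by the rule of every pair over 0.1 pairs them across media. Number 1 in XEN medium, however, correlated more with number 2 in ESC medium (0.45) than with its own. With number 7 apart in both media, the rule cannot settle whether numbers 1 and 2 are pairs. In iXEN cells number 9 had -0.06, and the numbers were not taken as pairs.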

Additional observations from a re-analysis of the deposited data

Results flagged for a closer look

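Sox18 in iXEN cells in ESC medium was 0.0461 CPM in library 6, from 1 count, and 0 in libraries 1, 2 and 9. The 1 library with a count stands apart from the other 3 by the whole range of the group. Of 6 groups of 4 libraries examined, 1 for each gene and iXEN group, this was the 1 that met the criterion. A single count beside 0 in the other libraries meets it by construction, so the flag was fixed by the sparse counts. The rate of about 5% of groups taken for chance cannot be applied to it. The level lies under the 3 counts taken as a floor.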

How the results depend on the processing

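Of the recomputed values of Sox17 and Sox7, 205 kept direction and side of the threshold, 7 lost the call and 6, none of them called, changed sign. The calls lost were all of Sox7 in XEN cells against MEF, whose log2 fold change ran from 5.68 to 8.11 in ESC medium and from 7.56 to 8.91 in XEN medium with 1 library left out (adjusted p in edgeR of 0.00249 to 0.139 and of 4.27e-05 to 0.0689). Sign changes came with 1 library left out in iXEN against XEN cells in XEN medium, for Sox17 (-0.22 to 0.14; 0.14 without iXEN library 9) and Sox7 (-0.49 to 0.90; -0.09 without iXEN library 1, -0.49 without XEN library 7). They also came in the medium effect on Sox17 in XEN cells (-0.039 to 0.32; -0.039 without XEN library 1 in ESC medium). In the interaction, Sox7 ran from -2.48 to 0.28 (0.28 without XEN library 1 in XEN medium, 0.06 without XEN library 7 in ESC medium). The cause was not tested.

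In XEN cells the numbers were taken as pairs by the rule on correlations given above, which the labels do not state. With the replicate number as a block, medium effects in XEN cells were 0.10 for Sox17 (adjusted p = 0.939 in edgeR) and 1.04 for Sox7 (adjusted p = 0.612). In iXEN cells they were 0.65 (adjusted p = 0.278) and 0.25 (adjusted p = 0.614), and for the interaction 0.53 (adjusted p = 0.573) and -0.81 (adjusted p = 0.544). The block changed no call of either gene, and 1 gene in all was called for the interaction.

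Counts of all genes called moved more. XEN cells in ESC medium against MEF had 3507, but 5560 with DESeq2, 6056 without XEN library 2 and 372, 692 and 562 without MEF 1, 2 and 3. In XEN medium, iXEN cells had 4708 against MEF, and 1847, 2245 and 1842 without MEF 1, 2 and 3. XEN cells had 6830, and 3985 and 4084 without MEF 1 and 3. Counts of 0 became 5 for iXEN against XEN cells in ESC medium with no filter, and 49 and 35 without XEN library 2 and 7. For medium in iXEN cells 0 became 330 with all 5 groups in the fit, and 346 and 416 without iXEN library 2 in XEN medium and library 6 in ESC medium. DESeq2 counts for the comparisons without MEF stand in the report.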

Other observations

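Collagen IV transcripts, basement membrane products of parietal endoderm, were nearly missing from 1 XEN library. In XEN library 1 in XEN medium Col4a1 was at 6.10 CPM and Col4a2 at 3.13 CPM, while Sox17 and Sox7 were at 335 and 272 CPM there. In the other 13 iXEN and XEN libraries Col4a1 was at least 2019 CPM. The ESC medium library of the same number had 13141 and 9507 CPM of Col4a1 and Col4a2.

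In iXEN library 9 in XEN medium the stem cell and endothelial glycoprotein gene Cd34 was at 679 CPM, against 59.3 to 95.7 CPM in MEF. Sox2 was at 48.2 CPM and Pou5f1 at 58.4 CPM in this library, against at most 3.80 and 0.116 CPM in MEF.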
